A study of Mus musculus with 6 samples.

Results

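The genes described here are those of the mitochondrial chromosome, taken as every row of the deposited count table whose gene symbol starts with mt-. They number 37 of 54532 rows and comprise 13 mRNAs, 2 rRNAs and 22 tRNAs. Counts came from 32D cells, a mouse myeloblast-like line that needs interleukin-3 to grow. All cells compared carried a retrovirus that expresses GFP and human U2AF1, a splicing factor that recognises the 3' end of introns, and the labels name no change to the cells' own U2af1. The WT group received the normal human protein and the S34F group the protein with the S34F substitution, with 3 libraries in each of these 2 groups. All were grown in serum-containing medium with mouse interleukin-3. The labels do not say whether libraries of a group came from separate cultures or transductions. A p-value here sets the difference between groups against the scatter of these libraries, and that scatter may be technical.

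The mitochondrial chromosome is a small circle that is transcribed on both strands into long precursor RNAs by a polymerase of its own. Its genes have no introns. tRNAs lie between most of the mRNAs and rRNAs, and cutting the tRNAs out of the precursor releases the other RNAs, most of which then receive short A tails. The mRNAs encode core subunits of respiratory chain complexes I, III and IV and of ATP synthase, while all other subunits and every protein that copies, transcribes or translates the chromosome come from nuclear genes.

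Libraries held 16509899 to 19129250 counts. CPM is the count scaled to library size with TMM factors, and 1 count equalled 0.0520 to 0.0608 CPM. WT replicates 2 and 3 lay far closer together than any other pair, with a chi-square per degree of freedom of 2.30 against 24.7 to 68.9. U2af1 did not differ beyond the spread between libraries (log2 fold change 0.17 ± 0.25, edgeR adjusted p = 0.721). Errors of log2 fold changes are SE with 3 libraries per group throughout. In the order of replicates 1 to 3, U2af1 was measured at 91.9, 57.3 and 91.7 CPM in S34F and at 97.9, 58.6 and 56.9 CPM in WT. Libraries of the same group thus differed in this row, and the part of that difference in the results below was not tested. Since both groups received a construct, U2af1 does not check the labels. Of 11 myeloblast markers 8 had a mean of at least 1 CPM, among them Csf2rb and Il3ra, subunits of the interleukin-3 receptor, while Elane, Kit and Cd34 had means of 0.277 CPM or less. The summed myeloblast markers lay between 1956 and 2383 CPM in S34F and between 1669 and 1977 CPM in WT. Among 8 erythroid and megakaryocyte markers the sums were 747 to 873 CPM in S34F and 584 to 615 CPM in WT, most of it Itga2b, with Hba-a2 and Hbb-bt at 0. The platelet factor gene Pf4 was measured at 39.1 CPM in S34F and 14.3 CPM in WT on average, without overlap (log2 fold change 1.45, edgeR adjusted p = 0.070). The myeloid transcription factor gene Spi1, 1 of the myeloblast markers, rose (log2 fold change 0.60, edgeR adjusted p = 0.049). Fibroblast markers summed to 6.04 to 22.3 CPM in S34F and 10.6 to 15.3 CPM in WT, with Col3a1, Pdgfra, Dcn and Lum at 0, and lymphoid markers summed to at most 0.851 CPM. The erythroid and megakaryocyte sums separated the groups and the myeloblast sums overlapped. Singly, the myeloblast markers Spi1, Ctsg and Il3ra were higher in every S34F library, as were 14.0% of all tested genes, and the others overlapped. Means were 374 CPM in S34F and 251 CPM in WT for Ctsg, and 89.4 and 65.2 CPM for Il3ra, and neither passed the test. The part of these markers in the results below was not tested.

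Of the 12 tested mitochondrial mRNAs 2 fell in S34F cells, 10 did not pass the test, and in 9 every S34F library lay below every WT library. The log2 fold change was below 0 in all 12 tested mRNAs and their median was -0.44, while the median over all 13444 tested genes was near 0 and 49.9% of them were negative. These mRNAs come from long precursors and were read in the same libraries, so they are not independent observations. Of the 20 mitochondrial genes with enough counts to test, mt-Cytb and mt-Co2 fell, none rose and 18 did not pass the threshold (p under 0.05 in edgeR's quasi-likelihood test after Benjamini-Hochberg adjustment over all genes). By the same test 2.18% of all genes were called, 0.595% as lower and 1.58% as higher. At an unadjusted p under 0.05 the number was 11 of 20, 10 of them lower, against 22.0% of all tested genes in either direction and 10.1% lower. In 11 of the 20 every S34F library lay below every WT library, as it did for 13.1% of all tested genes, and in 1 every S34F library lay above, which makes 12 without overlap against 27.1% of all tested genes. In bulk RNA, fewer mitochondria or fewer cells of a type cannot be told apart from less RNA in each. Both calls were made close to the threshold, and both were lost when any 1 library other than WT replicate 1 was left out or when WT replicates 2 and 3 were summed into 1. With each library's trend with GC content removed, the median over the 20 genes was -0.20 instead of -0.41, and mt-Atp6 and mt-Co3 had positive values (0.14 and 0.10).

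mt-Cytb encodes cytochrome b, the only mitochondrially encoded subunit of complex III (chrM:14145-15288, plus strand, mm10). Its values, here and below in the order of replicates 1 to 3, were 4036, 3792 and 3933 CPM in S34F and 5825, 5528 and 5600.2 CPM in WT. The groups did not overlap, and the libraries of each group lay close together. mt-Cytb fell 1.44-fold, or by -0.53 ± 0.11 on the log2 scale (edgeR adjusted p = 0.0492). No stretch of 50 bases in it was shared with a nuclear transcript. Its GC content, like that of the whole mitochondrial chromosome, is low: the 37 genes had a median of 35.6%, against 49.1% for all tested genes. Once the GC trend was taken out, mt-Cytb had a log2 fold change of -0.35 and the call was lost (edgeR adjusted p = 0.199), as it was with RLE factors (edgeR adjusted p = 0.052).

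Subunits of cytochrome c oxidase, complex IV, fell into 2 sets of very different level. mt-Co1, the catalytic subunit and the most abundant mitochondrial RNA in these libraries, was measured at 9279, 9320.5 and 9008 CPM in S34F and at 10423, 12688 and 12946 CPM in WT. The groups did not overlap, WT replicate 1 was the lowest of its group, and the log2 fold change of -0.39 ± 0.13 did not pass the test (edgeR adjusted p = 0.129). mt-Co2, which carries the copper centre that accepts electrons from cytochrome c (chrM:7013-7696, plus strand), was measured at 25.4, 24.6 and 23.8 CPM in S34F and at 37.9, 35.6 and 35.8 CPM in WT. It fell 1.48-fold without overlap between the groups, with a log2 fold change of -0.57 ± 0.12 (edgeR adjusted p = 0.0492). With the GC trend removed this was -0.38 and the call was lost (edgeR adjusted p = 0.167). mt-Co3, a structural subunit, was measured at 17.7, 12.2 and 18.8 CPM in S34F and at 16.7, 17.1 and 17.95 CPM in WT. Its groups overlapped, with S34F replicate 2 the lowest library (log2 fold change -0.09 ± 0.19).

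mt-Co2 shares its sequence with the nucleus, which bears on how its count is read. Nuclear transcripts were searched for stretches of at least 200 bases with at least 95% identity to a mitochondrial gene, and 11 copies of 9 mitochondrial genes were found. Of these, 7 lie in order in a block on chromosome 1 (chr1:24611535-24616197, minus strand, 4663 bases), and 5 of the 7 are identical to the mitochondrial gene over the aligned bases. The first 120 bases of mt-Co2 (chrM:7013-7132), of its chromosome 1 copy Gm28661 (chr1:24615446-24615565, minus strand) and of its chromosome 2 copy Gm13341 (chr2:22587843-22587962, minus strand) are shown because they separate a copy that no read from this stretch can tell apart from one that some reads can. Capitals in mt-Co2 and Gm13341 mark the bases that differ between these 2, and positions are counted from 1 at the first base of mt-Co2. The sequences come from the GENCODE M21 transcripts.
mt-Co2: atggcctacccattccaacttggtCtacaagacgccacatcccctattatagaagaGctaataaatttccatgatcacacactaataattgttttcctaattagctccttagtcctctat
Gm28661: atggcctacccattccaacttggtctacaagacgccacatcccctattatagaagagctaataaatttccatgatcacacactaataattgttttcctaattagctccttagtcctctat
Gm13341: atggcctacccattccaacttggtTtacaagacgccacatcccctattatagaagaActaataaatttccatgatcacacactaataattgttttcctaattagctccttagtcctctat
Gm28661 has no difference from mt-Co2 in this stretch or in the rest of the alignment, which covers 99.6% of the gene. Gm13341 differs at C25T and G57A here and has 95.9% identity over its alignment.

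The rows of these copies carried counts that could belong to either locus. Gm28661 was measured at 13.0, 13.6 and 15.05 CPM in S34F and at 22.3, 22.97 and 19.2 CPM in WT, and it held 36.6% of the counts of mt-Co2 and Gm28661 together. Its groups did not overlap, and its log2 fold change of -0.63 ± 0.15 (edgeR adjusted p = 0.068) had the same sign as that of mt-Co2. Added together, mt-Co2 and Gm28661 gave 38.4, 38.2 and 38.9 CPM in S34F and 60.2, 58.6 and 55.0 CPM in WT. With mt-Co2 summed with all its nuclear copies the log2 fold change was -0.60 (edgeR adjusted p = 0.030). The sum passed the test, but it cannot include reads of the shared sequence that were counted on no row. How many such reads there were is not known, so the sum does not check the call of mt-Co2. The sources used here do not say how reads with several matches were counted.

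Of the other copies on chromosome 1, those of mt-Co1 and mt-Nd3 each differ from the mitochondrial gene by a single base in the aligned stretch, which leaves most reads without a distinguishing position. The stretches that hold it are shown, with that base in capitals.
mt-Co1: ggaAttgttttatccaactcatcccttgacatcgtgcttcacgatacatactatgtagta
Gm29216: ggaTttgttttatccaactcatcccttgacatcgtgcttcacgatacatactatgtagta
mt-Nd3: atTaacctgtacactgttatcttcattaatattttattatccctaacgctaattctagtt
Gm28438: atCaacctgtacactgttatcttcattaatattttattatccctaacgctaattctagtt
The stretches of mt-Co1 (chrM:6390-6449) and Gm29216 (chr1:24616129-24616188, minus strand) differ at A1066T, counted from the first base of mt-Co1. Those of mt-Nd3 (chrM:9459-9518) and Gm28438 (chr1:24613060-24613119, minus strand) differ at T3C, counted from the first base of mt-Nd3. Gm29216 covers 31.3% of mt-Co1 and was measured at 5.76, 6.81 and 7.41 CPM in S34F and at 17.2, 12.1 and 9.03 CPM in WT, without overlap (log2 fold change -0.94 ± 0.26, edgeR adjusted p = 0.094). Gm28438 was measured at 6.32, 5.82 and 5.08 CPM in S34F and at 9.12, 9.48 and 8.87 CPM in WT, again without overlap (log2 fold change -0.67 ± 0.19, edgeR adjusted p = 0.099). It held 88.6% of the counts of mt-Nd3 and its copy together, so most of what was counted on either row stood on the nuclear row. How many reads of that sequence were counted on neither row is not known. Gm10222, the copy of mt-Nd4l, was measured at 2.31, 2.70 and 2.51 CPM in S34F and at 3.77, 3.42 and 3.30 CPM in WT, without overlap (log2 fold change -0.48 ± 0.24, edgeR adjusted p = 0.290). The copies of mt-Co3 and mt-Nd4, Gm28437 and Gm28439, overlapped between groups like mt-Co3 and unlike mt-Nd4 (log2 fold changes -0.10 ± 0.18 and -0.20 ± 0.20). None of the 7 copies on chromosome 1 passed the test. Of the less similar copies on chromosomes 2 and 13, Gm13340 (mt-Co1) and Gm13341 (mt-Co2) were tested and did not pass (log2 fold changes -0.55 and -1.10), and Gm13339 (mt-Nd2) and Gm4076 (mt-Nd5) had too few counts to test. Their rows together with the other copies held between 0.00715% and 0.00858% of all counts in S34F and between 0.0103% and 0.0115% in WT.

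**Figure D1:**
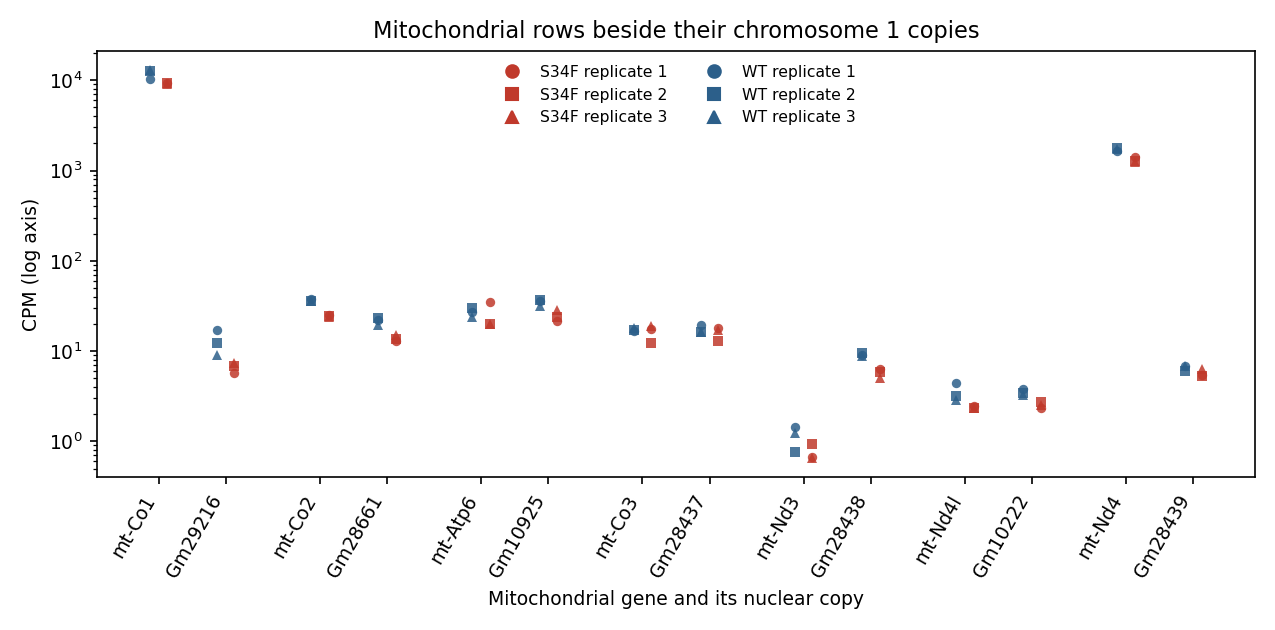
CPM on a log axis of mitochondrial genes and of their nuclear copies on chromosome 1, with 1 point per library, WT beside S34F and a marker shape for each replicate number. Gm28661 lies between 13.0 and 15.05 CPM in S34F and between 19.2 and 22.97 CPM in WT, below mt-Co2 in every library, while Gm28438 lies above mt-Nd3 in every library.

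Complex I, which passes electrons from NADH to ubiquinone, has 7 subunits encoded in the mitochondria, and none of them passed the test. The membrane subunit mt-Nd1 was measured at 2794, 2436 and 2269.8 CPM in S34F and at 3792, 2958 and 3051 CPM in WT. mt-Nd2, an antiporter-like membrane subunit, was measured at 1494, 1359 and 1302 CPM in S34F and at 1935, 1796 and 1887 CPM in WT. In both genes every S34F library lay below every WT library, with log2 fold changes of -0.39 ± 0.14 (edgeR adjusted p = 0.166) and -0.44 ± 0.11 (edgeR adjusted p = 0.0833). The subunit mt-Nd4, antiporter-like as well, was measured at 1423, 1285 and 1232 CPM in S34F and at 1631, 1759 and 1753 CPM in WT. mt-Nd5, also antiporter-like, was measured at 2245, 1985 and 1563 CPM in S34F and at 2709, 2587 and 2637 CPM in WT. Neither overlapped between groups, the S34F libraries of mt-Nd5 were more spread than those of mt-Nd4, and the log2 fold changes were -0.38 ± 0.11 (edgeR adjusted p = 0.109) and -0.45 ± 0.15 (edgeR adjusted p = 0.129).

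mt-Nd6 is the only mitochondrial mRNA read from the minus strand in the annotation used. It was measured at 633, 515 and 388 CPM in S34F and at 802, 737 and 734 CPM in WT. The groups did not overlap, and the log2 fold change of -0.57 ± 0.17 did not pass the test (edgeR adjusted p = 0.115). It overlaps mt-Nd5 on the other strand by 14 bases, and the strand setting of the counting is not given in the sources used here. The small subunits mt-Nd3 and mt-Nd4l were near the bottom of the range, at 0.66 to 0.94 CPM and 2.33 to 2.48 CPM in S34F and at 0.77 to 1.46 CPM and 2.87 to 4.44 CPM in WT. The groups of mt-Nd3 overlapped, those of mt-Nd4l did not, and neither passed (log2 fold changes -0.60 ± 0.39 and -0.55 ± 0.27).

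ATP synthase holds 2 mitochondrially encoded subunits of its proton-conducting membrane sector. mt-Atp6 was measured at 35.2, 20.2 and 19.95 CPM in S34F and at 27.1, 30.04 and 24.1 CPM in WT. S34F replicate 1 was the highest of all 6 libraries and the other S34F libraries were the lowest, so the groups overlapped (log2 fold change -0.11 ± 0.23, edgeR adjusted p = 0.822). Its chromosome 1 copy Gm10925, identical over the aligned bases, was measured at 21.4, 24.0 and 28.4 CPM in S34F and at 36.0, 37.2 and 31.6 CPM in WT and did not overlap between groups. The sum of mt-Atp6 and its copy had a log2 fold change of -0.32 (edgeR adjusted p = 0.204). mt-Atp8, which overlaps mt-Atp6 by 43 bases, had 2, 2 and 1 counts in S34F and 5, 0 and 4 counts in WT, too few to test.

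**Figure D2:**
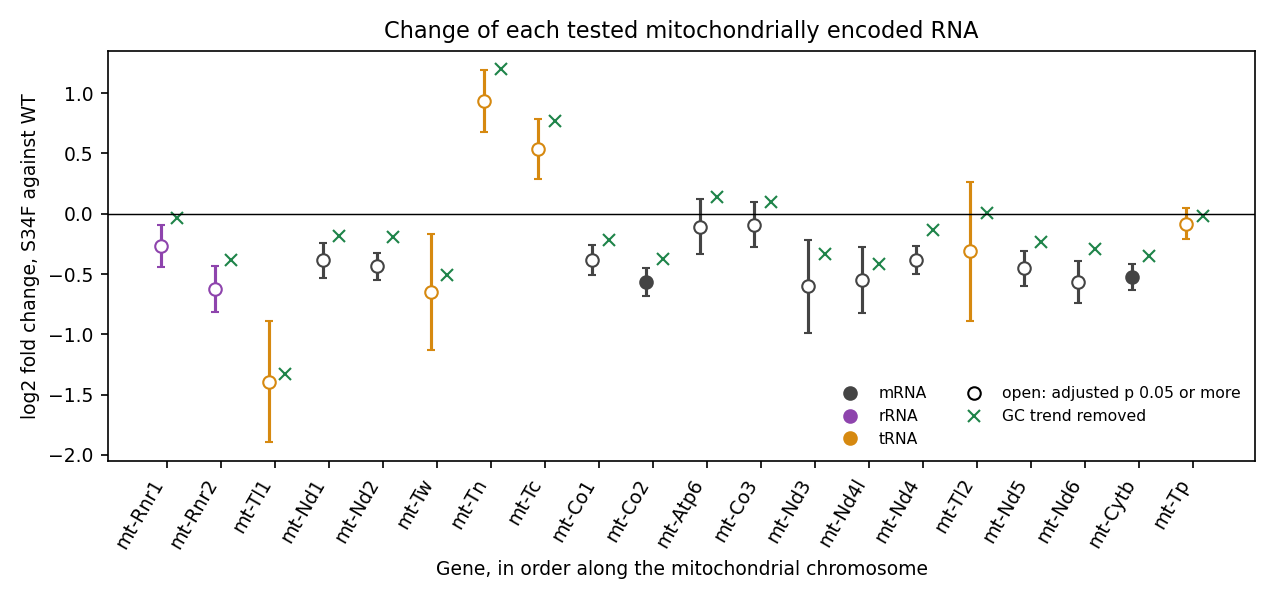
Log2 fold change of S34F against WT for the 20 tested mitochondrial genes in their order along the chromosome, with the edgeR standard error as the bar, colour for RNA class, open points for an adjusted p of 0.05 or more and crosses for the value with the GC trend removed. All 12 mRNAs lie below 0, only mt-Co2 and mt-Cytb are filled, and mt-Tn and mt-Tc are the only points above 0.

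Per kilobase of gene length, mitochondrial mRNAs in WT cells spanned from 7779 ± 898 CPM for mt-Co1 to 0.850 CPM for mt-Atp8 (SD, n = 3). Below mt-Co1 came mt-Cytb at 4940 ± 135, mt-Nd1 at 3414 ± 477 and mt-Nd2 at 1804 ± 67.9 CPM per kb. mt-Nd6 at 1459 ± 74.3 and mt-Nd5 at 1450 ± 33.8 CPM per kb did not differ beyond their spread, and mt-Nd4 followed at 1244 ± 52.2. The next mRNA, mt-Co2, stood at 53.2 ± 1.87 CPM per kb. It was followed by mt-Atp6 at 39.7 ± 4.40, mt-Co3 at 22.0 ± 0.80, mt-Nd4l at 11.8 ± 2.80 and mt-Nd3 at 3.32 ± 1.02. mt-Co1 and mt-Co2, neighbours on the same strand, thus stood at opposite ends of this step. In S34F cells the order of the 7 most abundant mRNAs differed in that mt-Nd5 at 1059 ± 189 CPM per kb stood above mt-Nd6 at 986 ± 236, within their spread. The level of mt-Co2 in S34F, 36.0 ± 1.14 CPM per kb, was within the spread of that of mt-Atp6 at 36.9 ± 12.8.

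The low mRNAs, apart from mt-Atp8, were those that share nearly all of their sequence with the nucleus. In mt-Co2, mt-Atp6, mt-Co3, mt-Nd3 and mt-Nd4l, between 98.0% and 100% of all 50-base windows also occurred in a nuclear transcript. In mt-Nd4 the share was 62.2%, in mt-Co1 51.1%, in mt-Nd2 8.19% and in mt-Nd5 7.61%, and it was 0 in mt-Nd1, mt-Nd6 and mt-Cytb. mt-Atp8, the lowest of all, was also at 0 and so departs from this pattern. It lies between mt-Co2 and mt-Atp6 on the mitochondrial chromosome. On chromosome 1 the copies of those neighbours are 233 bases apart, much as mt-Co2 and mt-Atp6 are at 230 bases, with no annotated transcript in that gap, so its sequence could not be compared. The part of reads with several matches in these levels was not tested, so the order above is one of counted levels as deposited, not of the amount of each RNA.

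**Figure D3:**
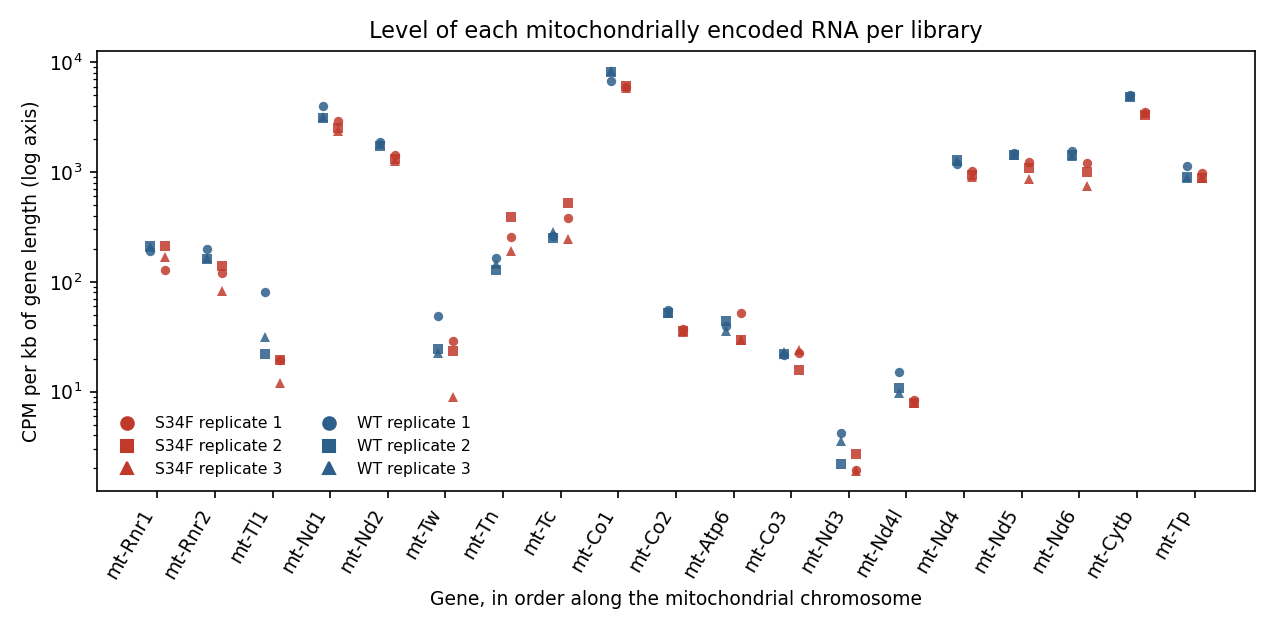
Level per library in CPM per kb of gene length, on a log axis, for mitochondrial genes in their order along the chromosome, WT and S34F in different colours with a marker shape per replicate; mt-Atp8 and tRNAs with a mean under 1 CPM are left out. The run from mt-Co2 to mt-Nd4l lies at 53.2 CPM per kb or less in the WT means, between mt-Co1 at 7779 and mt-Nd4 at 1244.

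Both rRNAs of the mitochondrial ribosome were tested. The large-subunit rRNA mt-Rnr2 was measured at 189.6, 219 and 129.9 CPM in S34F and at 318, 255 and 258 CPM in WT. Its groups did not overlap (log2 fold change -0.63 ± 0.19, edgeR adjusted p = 0.115). The small-subunit rRNA mt-Rnr1 was measured at 121, 202 and 161 CPM in S34F and at 182, 202 and 198 CPM in WT, so S34F replicate 2 lay within the WT range (log2 fold change -0.27 ± 0.17). The labels call the libraries mRNA libraries, and per kb mt-Rnr1 and mt-Rnr2 stood at 203 ± 11.5 and 175 ± 22.3 CPM in WT, below the 7 most abundant mRNAs.

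Of the 22 tRNA genes, 9 had no count in any library (mt-Tq, mt-Tk, mt-Tf, mt-Tv, mt-Tm, mt-Ts1, mt-Td, mt-Tg and mt-Tr), which allows up to 3 counts in each, or 0.157 to 0.182 CPM before TMM scaling. Another 7 had too few counts to test, with at most 42 counts in a library, reached by mt-Te in WT replicate 1. That library also had the most counts of mt-Ts2, at 28 against 6 and 12 in the other WT libraries and 5, 6 and 1 in S34F. The 6 tested tRNAs did not move together: 4 had negative and 2 positive log2 fold changes, and none passed the test. The labels call the libraries mRNA libraries, and the strand setting of the counting is not given. Whether counts on tRNA genes came from cut tRNAs or from precursor RNA was not tested, so they are not read as levels of tRNA.

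mt-Tn and mt-Tc, the tRNAs for asparagine and cysteine, stood apart from the rest in direction. They lie 32 bases apart on the minus strand, within a row of minus-strand tRNA genes, and their sequences are shown with the anticodon in capitals, from the GENCODE M21 transcripts.
mt-Tn: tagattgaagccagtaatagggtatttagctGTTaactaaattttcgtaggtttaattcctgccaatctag
mt-Tc: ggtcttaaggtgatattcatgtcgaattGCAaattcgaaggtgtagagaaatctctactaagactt
mt-Tn (chrM:5089-5159) was measured at 18.3, 27.4 and 13.7 CPM in S34F and at 11.7, 9.01 and 10.4 CPM in WT. Every S34F library lay above every WT library, as in 14.0% of all tested genes, and the log2 fold change of 0.93 ± 0.26 did not pass the test (edgeR adjusted p = 0.0933), though it passed in DESeq2 (adjusted p = 0.0109). mt-Tc (chrM:5192-5257) was measured at 25.3, 34.6 and 16.1 CPM in S34F and at 17.2, 16.5 and 18.7 CPM in WT. S34F replicate 3 lay below all WT libraries in mt-Tc, so the groups overlapped (log2 fold change 0.54 ± 0.25, edgeR adjusted p = 0.249). In both genes S34F replicate 2 was the highest and replicate 3 the lowest of the S34F libraries. Their outer neighbours mt-Ta and mt-Ty, each 2 bases away, had at most 9 counts in any library.

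The other tested tRNAs lie elsewhere on the chromosome. mt-Tp, the minus-strand proline tRNA (chrM:15356-15422), was measured at 65.8, 59.1 and 58.9 CPM in S34F and at 75.5, 60.6 and 58.8 CPM in WT, and the groups overlapped (log2 fold change -0.08 ± 0.13). The leucine tRNA mt-Tl1, which lies between mt-Rnr2 and mt-Nd1, had 26, 28 and 15 counts in S34F and 100, 28 and 44 counts in WT. Its log2 fold change of -1.39 ± 0.50 was the lowest of the 20 and did not pass (edgeR adjusted p = 0.159), with WT replicate 1 far above the other libraries. Without that library it was -0.65 (edgeR adjusted p = 0.291). mt-Tw and mt-Tl2 were measured at 0.60 to 1.92 CPM and 0.30 to 1.24 CPM in S34F and at 1.51 to 3.28 CPM and 0.59 to 1.34 CPM in WT, and both overlapped.

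Together the mitochondrial genes held 2.14%, 2.14% and 2.02% of all counts in S34F and 2.73%, 2.95% and 2.98% in WT. No S34F library reached the lowest WT library, and the means were 2.10% ± 0.0719 and 2.89% ± 0.137 (SD, n = 3 per group), a log2 ratio of -0.46. The mRNAs made up nearly all of this, at 2.06% ± 0.0667 in S34F and 2.83% ± 0.140 in WT. The rRNAs held 0.0297%, 0.0424% and 0.0291% in S34F and 0.0490%, 0.0471% and 0.0466% in WT, also without overlap. The tRNAs were the exception, at 0.0112%, 0.0127% and 0.0091% in S34F and 0.0119%, 0.0094% and 0.0096% in WT, with a log2 ratio of 0.09 and overlapping groups. These shares are sums over genes whose fold changes were already known, and no p is given for them.

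Within the mitochondrial mRNA, the proportions of 12 of the 13 mRNAs overlapped between the groups. mt-Co1 made up 44.2% ± 1.79 of the mitochondrial mRNA counts in S34F and 42.8% ± 3.92 in WT, and mt-Cytb 18.8% ± 0.917 and 20.2% ± 1.06 (SD, n = 3 per group). mt-Nd1 made up 11.98% ± 0.645 and 11.7% ± 1.94, mt-Nd5 9.23% ± 1.19 and 9.45% ± 0.443, and mt-Nd2 6.64% ± 0.133 and 6.69% ± 0.377. The exception was mt-Co2, at 0.115%, 0.119% and 0.121% in S34F and 0.139%, 0.126% and 0.125% in WT. With 3 libraries against 3 an exact permutation test cannot go below p = 0.1, so 1 of 13 mRNAs without overlap is no sign of a changed proportion. These proportions are given as a description.

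The same genes were also set against the mitochondrial mRNAs, whose total was itself lower in S34F, so a gene with equal CPM in both groups has a higher value on this scale. Per 1000 counts of the other mitochondrial mRNAs, mt-Tn had 0.834, 1.32 and 0.692 counts in S34F and 0.431, 0.320 and 0.362 in WT. mt-Tc had 1.15, 1.67 and 0.813 in S34F and 0.633, 0.586 and 0.650 in WT, and mt-Tp had 2.99, 2.85 and 2.98 in S34F and 2.77, 2.15 and 2.05 in WT. In all of these every S34F library lay above every WT library on this scale, as did 50.1% of all tested genes, and in CPM mt-Tc and mt-Tp overlapped, so this is no sign of a rise in these tRNAs. The minus-strand mRNA mt-Nd6 had 29.6, 25.4 and 20.02 counts per 1000 in S34F and 30.4, 26.9 and 26.2 in WT, and it overlapped, as did mt-Rnr1, mt-Rnr2, mt-Tl1 and mt-Tw.

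**Figure D4:**
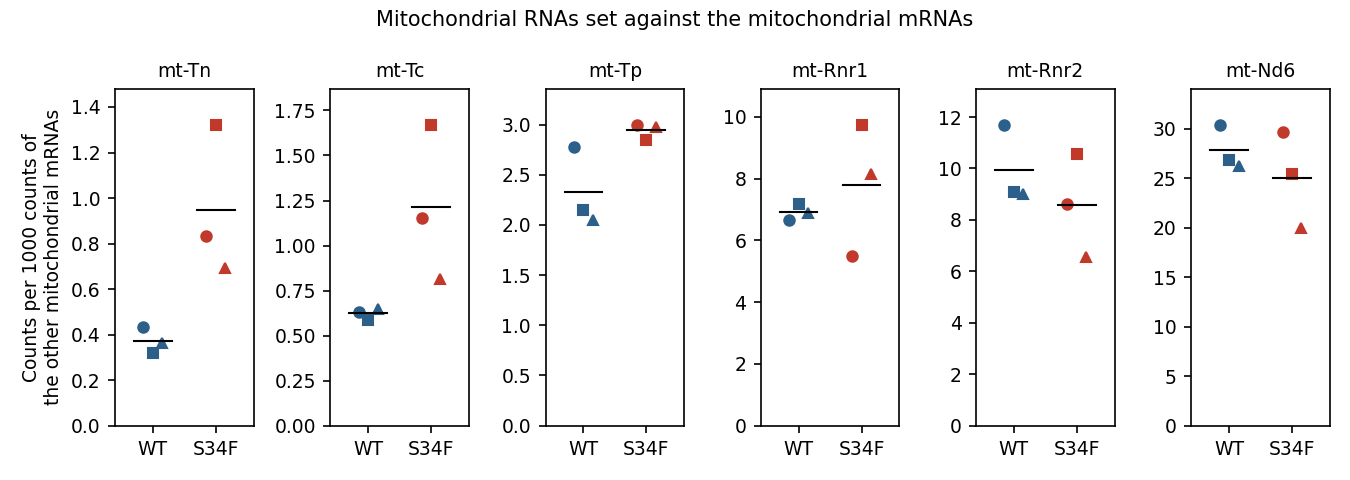
Counts of mitochondrial RNAs per 1000 counts of the other mitochondrial mRNAs, 1 panel per RNA and 1 point per library (circle, square and triangle for replicates 1, 2 and 3), WT on the left and S34F on the right of each panel, with the line at the group mean. In mt-Tn, mt-Tc and mt-Tp every S34F point lies above every WT point, and mt-Nd6 and the rRNAs overlap.

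Nuclear genes that maintain or express the mitochondrial chromosome, regulate mitochondrial biogenesis or encode subunits of complexes I and III to V were read from 10 lists. Of their 165 tested members 1 rose, none fell and 32 had an unadjusted p under 0.05, against 2.18% of all tested genes called and 22.0% at an unadjusted p under 0.05, so neither count stands above the share over all genes. The median log2 fold change was 0.04. Esrra, a nuclear receptor that drives genes of oxidative metabolism, was the 1 that rose. It was measured at 68.8, 53.6 and 64.3 CPM in S34F and at 43.7, 34.6 and 35.5 CPM in WT, without overlap (log2 fold change 0.71 ± 0.14, edgeR adjusted p = 0.048). No member was called with the GC trend removed, with WT replicates 2 and 3 summed, or without any 1 of S34F replicates 1 and 3 and WT replicates 2 and 3. Ppargc1a, the coactivator best known for mitochondrial biogenesis, had 0 counts in all libraries, and of the 10 tested biogenesis regulators 6 were positive, with a median of 0.11.

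The 15 tested genes of mitochondrial DNA maintenance had a median log2 fold change of 0.12, with none called and 4 at an unadjusted p under 0.05. Those with the smallest p were Slc25a33, a pyrimidine nucleotide carrier, at 0.55 (edgeR adjusted p = 0.063) and the mitochondrial topoisomerase gene Top1mt at 0.76 (edgeR adjusted p = 0.102). The 11 genes of mitochondrial transcription had a median of -0.19, and 8 of them were negative. Tefm, the elongation factor, and Tfb2m, which opens the promoter for the polymerase, had log2 fold changes of -0.32 (edgeR adjusted p = 0.224) and -0.31 (edgeR adjusted p = 0.298). None of the 11 was called and 1 had an unadjusted p under 0.05.

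Among the 23 genes of RNA processing and stability none was called and 1 had an unadjusted p under 0.05, with a median of -0.05. Hsd17b10, a subunit of the mitochondrial RNase P that cuts tRNAs at the 5' end, had a log2 fold change of 0.51 (edgeR adjusted p = 0.173), and Fastk, which is needed for mt-Nd6 RNA, one of 0.22 (edgeR adjusted p = 0.381). The 20 genes that modify tRNA and rRNA had a median of -0.09, none called and 5 at an unadjusted p under 0.05. They were led by the tRNA modification enzymes Mto1 at -0.44 (edgeR adjusted p = 0.103) and Trmt5 at -0.38 (edgeR adjusted p = 0.169). The 14 translation factors and activators had a median of -0.05, none called and 2 at an unadjusted p under 0.05. The smallest p values were those of the membrane insertase gene Oxa1l at -0.31 (edgeR adjusted p = 0.1296) and the initiation factor gene Mtif3 at -0.36 (edgeR adjusted p = 0.199).

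Nuclear subunits of the same complexes were mixed in direction, and none passed the test. For complex I, 32 of 37 tested nuclear subunits had a positive log2 fold change, with a median of 0.26, none called and 13 at an unadjusted p under 0.05, while all 7 mitochondrially encoded subunits were negative. Over all tested genes 49.9% were negative and 22.0% had an unadjusted p under 0.05. Ndufa2 and Ndufa7, accessory subunits, had log2 fold changes of 0.96 (edgeR adjusted p = 0.056) and 0.55 (edgeR adjusted p = 0.083). For complex III 6 of 9 were positive, with a median of 0.12, and Uqcrq and Uqcrh stood at 0.76 (edgeR adjusted p = 0.056) and -0.33 (edgeR adjusted p = 0.414). For complex IV 5 of 11 were positive, with a median of -0.02, and Cox5b and Cox4i1 stood at 0.48 (edgeR adjusted p = 0.101) and 0.25 (edgeR adjusted p = 0.235). For ATP synthase 11 of 16 were positive, with a median of 0.08, and Atp5e and Atp5d stood at 0.45 (edgeR adjusted p = 0.150) and 0.33 (edgeR adjusted p = 0.266). In each of complexes III, IV and V none was called and 1 had an unadjusted p under 0.05.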

How the data were processed

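RNA was measured by sequencing in 6 libraries of 32D cells. The authors deposited whole-number counts per gene, made with HISAT2 and featureCounts on mm10 per the submitters' processing notes. Their versions, the strand setting and the treatment of reads that match several places were not given in the sources used here. Per the labels' protocols, the library kit was directional. Sample titles gave the group and the replicate number.

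The whole table was fitted with edgeR 4.0.16 (R 4.3.3), TMM factors, filterByExpr and the robust quasi-likelihood test (two-sided, genotype only, 4 residual degrees of freedom). P-values were adjusted over 13444 genes by the Benjamini-Hochberg method at 0.05. Each standard error is the size of the log2 fold change over the root of its F value. The fit was tested on simulated data. Sums over members were tabulated with an exact permutation test in scipy 1.17.1, and no p is printed for them.

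Gene positions and sequences came from GENCODE M21, the same build, and nuclear copies from BLAST 2.17.0 (megablast, at least 200 bases and 95% identity). GC content was known for 13433 tested genes, and its trend was removed with a loess of span 0.5. The 10 nuclear and 4 marker lists held 203 entries, of which 5 were matched by an older symbol and 0 were unmatched; 1 marker is not reported here by name. Every mitochondrial mRNA, rRNA and tRNA with a mean of at least 1 CPM was described, and of each nuclear list the called members or the 2 with the smallest p. The members and lists were chosen with earlier results of these data known. The alternatives tried were upper-quartile and RLE factors, library totals, 2 other filters, DESeq2 1.42.0, limma-voom (limma 3.58.1), the replicate block, WT replicates 2 and 3 summed, the GC correction, scaling from other genes, sums with nuclear copies and each library left out. Figures were drawn with matplotlib 3.10.9.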

Additional observations from a re-analysis of the deposited data

How the results depend on the processing

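Of the 20 tested mitochondrial genes 2 were called, and the number stayed at 2 with upper-quartile factors, library totals alone, a filter of 1 CPM in 3 libraries, limma-voom, scaling from other genes and sums with nuclear copies. It was 1 with RLE factors (mt-Co2), 5 with no count filter (1 higher, 4 lower), 9 with DESeq2 (1 higher, 8 lower), and 0 in edgeR with WT replicates 2 and 3 summed or with the GC trend removed, where 10 and 5 had an unadjusted p under 0.05. Without 1 library at a time it ranged from 0 to 2, and was 2 only without WT replicate 1. Called nuclear genes, 1 of 165, numbered 8 with no filter, 10 with DESeq2, 0 with the WT replicates summed or the GC trend removed (15 and 23 at an unadjusted p under 0.05), and 0 to 18 without 1 library, reaching 4 without S34F replicate 2 and 18 without WT replicate 1. Calls over all tested genes moved as well. The main fit called 213 higher and 80 lower of 13444, and DESeq2 746 and 470. With no filter there were 500 and 263 of 24480, and without WT replicate 1 there were 722 and 455 of 13837. Summing the WT replicates gave 16 and 4 of 13815, and removing the GC trend gave 117 and 44 of 13444. The median log2 fold change of the tested mitochondrial genes, -0.41, became -0.20 with the GC trend removed and ranged from -0.52 to -0.33 without 1 library. The log2 ratio of the mitochondrial share, -0.46, ranged from -0.50 to -0.43 without 1 library and was 0.092 over tRNA rows alone. The count of mRNAs whose proportion did not overlap, 1, was 0 among mRNAs with no near-complete nuclear copy and 1 to 3 without 1 library. Groups separate more readily with fewer libraries, so these counts are no sign of a changed composition. mt-Tn was called higher with DESeq2 (adjusted p = 0.0109), with no filter (0.00813) and with the replicate block (0.0429). Under the other alternatives it was not called, with adjusted p values of 0.0625 to 0.309. With the GC trend removed the signs of mt-Atp6 (0.14), mt-Co3 (0.10) and mt-Tl2 (0.0035) reversed. Without 1 library at a time mt-Atp6 ranged from -0.44 to 0.038, mt-Co3 from -0.20 to 0.083, mt-Tl2 from -1.04 to 0.16 and mt-Tp from -0.15 to 0.043. Over the 20 genes and all alternatives, 317 of 358 log2 fold changes kept their direction and their side of the threshold. The cause of these differences was not tested.

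With the replicate block 9 mitochondrial genes (1 higher, 8 lower) and 18 nuclear genes were called. Over all 13444 tested genes this fit called 878 higher and 540 lower. The labels name no shared batch. Deviations of same-numbered libraries from their group means correlated at 0.332, 0.159 and 0.072. S34F replicate 1 correlated with WT replicates 2 and 3 at -0.259 and -0.243. S34F replicates 2 and 3 correlated with WT replicate 1 at -0.206 and -0.101. S34F replicate 3 correlated with WT replicate 2 at 0.080, near its value with WT replicate 3. These correlations cannot show whether libraries were paired by design, and a batch shared by the replicate 1 libraries was not tested. Depth limits what can be said of mt-Atp8 and the 16 untested tRNAs, which had at most 42 counts in a library.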
